A study of Mus musculus with 2 samples.

Results

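Ifitm2, Ifitm3, Ly6a, Ly6e and Bst2 encode small membrane proteins whose genes are switched on by interferons, and they are 5 of the 31053 genes counted in single cells of the mouse cribriform plate. They were listed by name after the contrast between the 2 libraries described here was known, so their differences between libraries are given as a description with no test. All 5 were found in the feature list and all 5 had at least 20 unique molecular identifiers (UMIs, tags that count RNA molecules) over the kept cells. All donors were wild-type C57BL/6J females 10 weeks of age. One pool came from 5 mice with EAE (autoimmune encephalomyelitis, an inflammatory disease of brain and spinal cord that is induced in animals) and the other from 5 healthy mice, so each condition is 1 sample without a replicate. Tissue of the plate, together with the olfactory bulbs and pieces of mucosa, was broken up by mechanical force and sorted for cells with podoplanin and CD31 at the surface and without CD45, a gate aimed at lymphatic endothelium. Both pools share a count matrix in which barcodes end in 1 or 2, and no source used here ties an ending to a condition. The libraries are therefore called library 2 and library 1, and EAE was not compared with healthy mice.

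Cells were kept with 200 or more genes and with mitochondrial UMIs of up to 20%, which left 1922 cells of library 2 and 3406 of library 1, with medians of 9783 and 7334 UMIs per cell. Their transcripts went against the label. Ptprc, the gene of CD45, had a UMI in 81.1% of library 2 cells and 81.9% of library 1 cells. Pecam1, the gene of CD31, had one in 5.31% and 12.2% of cells. Pdpn, the gene of podoplanin, had one in 4 and 12 cells, and no cluster took the name of lymphatic endothelium. Microglia-like cells, named from microglial markers, made up 1721 cells (89.5%) of library 2 and 3162 cells (92.8%) of library 1. The early and stress genes, among them Fos, Jun and Hspa1a, summed to 21344 CPM (UMIs summed over cells and scaled to a total of 1000000) in library 2 against 58755 CPM in library 1, over all kept cells. In each library, 7 kept cells had a barcode sequence that was also kept under the other suffix. Leaving them out changed Ifitm3 over all library 1 kept cells to 51.5 CPM, against 53.6 CPM with them, and the other 4 genes by less.

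Interferons bind receptors that signal through JAK kinases and STAT factors, which act on short promoter motifs: the interferon-stimulated response element for type I interferon and the gamma-activated site for interferon gamma. IFITM proteins sit in the plasma and endosomal membranes and hinder the fusion of enveloped viruses with the cell. Ifitm3 acts mainly in endosomes, and Ifitm2 is its close relative. Ly6 proteins are small and held in the outer leaflet of the membrane by a lipid anchor. Ly6a encodes Sca-1, known as a marker of blood stem cells and of endothelium in mice, and Ly6e encodes a family member that hinders entry of coronaviruses. Bst2 encodes tetherin, which holds budding virus particles at the cell surface. In the brain, microglia are the resident macrophages, and they respond to both kinds of interferon.

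In the RefSeq annotation of assembly GRCm38.p6, Ifitm2 and Ifitm3 lie on chromosome 7 on either side of Ifitm1, and Ly6a and Ly6e lie on chromosome 15 on either side of Ly6i, counting protein-coding neighbours. Bst2 lies on chromosome 8. RefSeq promoter sequences were matched for 3 of the 5 genes, Ifitm2, Ifitm3 and Bst2, and not for Ly6a and Ly6e. Each covers 250 bases before the transcription start and 50 from it on, and the 100 bases that hold the interferon motifs are printed 5′ to 3′ on the minus strand that carries each gene. They are shown because the genes are described below by how they go with other interferon genes. Capitals mark each match to the core of the interferon-stimulated response element, written as GAAA and GAAA with 2 bases of any kind between them.
Ifitm2, chr7:140955932-140956031: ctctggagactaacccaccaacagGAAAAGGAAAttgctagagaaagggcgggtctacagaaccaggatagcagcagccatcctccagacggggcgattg
Ifitm3, chr7:141010715-141010814: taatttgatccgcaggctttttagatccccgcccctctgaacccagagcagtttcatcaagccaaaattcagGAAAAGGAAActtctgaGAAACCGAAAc
Bst2, chr8:71537533-71537632: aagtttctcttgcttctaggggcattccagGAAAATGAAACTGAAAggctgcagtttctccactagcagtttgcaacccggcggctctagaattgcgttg

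Both strands of all 300 bases were searched. The Ifitm2 sequence held 1 match, beginning 46 bases before the start, and its letters, GAAAAGGAAA, also form the first match of Ifitm3. Ifitm3 held 2 matches, which begin 2 and 19 bases past the annotated start. Bst2 held 2 that overlap each other, beginning 130 and 124 bases before the start. The core of the gamma-activated site, TTCNNNGAA with N for any base, was found once in Ifitm3 (TTCTGAGAA) and once in Bst2 (TTCCAGGAA). Each of these shares bases with a response element match, and that of Ifitm3 also lies past the start. Ifitm2 had no match to it in this window. Of all 32851 promoters in the table, 3.44% held the response element core and 8.30% the gamma-activated core, which is 3.99% and 9.55% of the 27025 genes. Of interferon genes with a promoter entry, the response element core was present for 13 of 22 on a type I list and 11 of 19 on an interferon gamma list. The gamma-activated core was present for 2 of 22 and 8 of 19. A match is a description of letters and not of binding.

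All 5 genes were higher in library 2 than in library 1 over the kept cells. Ifitm3 had 18728 UMIs (923 CPM) in library 2 against 1380 UMIs (53.6 CPM) in library 1, a ratio of 17.2 with an exact 95% interval of 16.3 to 18.2. Ifitm2 had 751 UMIs (37.0 CPM) against 395 UMIs (15.3 CPM), a ratio of 2.42 (2.14 to 2.74). Intervals here cover counting error only and say nothing of the spread between pools of mice. Of the pair on chromosome 15, Ly6a stood at 603 CPM in library 2 and 19.8 CPM in library 1 (ratio 30.4, 27.8 to 33.3). Ly6e stood at 1773 and 733 CPM (ratio 2.42, 2.38 to 2.46). Bst2 stood at 965 CPM in library 2 and 213 CPM in library 1 (ratio 4.53, 4.40 to 4.67). Ly6a and Ifitm3 thus had the widest ratios of the 5, and Ly6e and Ifitm2 shared a ratio of 2.42 at very different numbers of UMIs.

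On the log2 scale with 10 CPM added to each side, 4 of the 5 genes were at least 2-fold higher in library 2 and none was 2-fold lower. Over all 13891 genes with at least 20 UMIs, 2.76% were at least 2-fold higher, 1.92% were 2-fold lower, and the median was 0.02. Because the genes were chosen on this contrast, nothing is read from their count. Ifitm2, at 0.89, lay just under the 2-fold limit and Ly6e, at 1.26, was the nearest above it. The log2 ratios of Bst2, Ifitm3 and Ly6a were 2.13, 3.88 and 4.36, and Ly6a and Ifitm3 ranked 5 and 9 among the 13891 genes.

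Within microglia-like cells the ratios were wider. Ifitm2 stood at 32.0 CPM in library 2 against 5.02 CPM in library 1, a ratio of 6.37 (5.23 to 7.81), against 2.42 over all kept cells. The library 1 level was not told apart from background, as given below, so this ratio is uncertain beyond its interval. In library 1 only 121 of the 395 Ifitm2 UMIs lay in microglia-like cells, while 117 lay in 62 epithelial-like cells and 54 in 53 border-macrophage-like cells. In library 2, 598 of 751 lay in microglia-like cells. Ifitm3 stood at 923 CPM (910 to 937) against 42.5 CPM (39.9 to 45.2), and Ly6a at 618 CPM (607 to 630) against 14.6 CPM (13.1 to 16.2), ratios of 21.7 and 42.3. Ly6e stood at 1843 CPM (1824 to 1863) against 741 CPM (730 to 752), and Bst2 at 988 CPM (974 to 1003) against 200.2 CPM (195 to 206), ratios of 2.49 and 4.94. All 5 genes were past 2-fold in this class, where 2.86% of 12361 genes were at least 2-fold higher and 2.24% at least 2-fold lower, and again nothing is read from that count.

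Different clusters made up this class in each library. Library 2 microglia-like cells lay mainly in cluster 14, led by Cxcl9 and Cxcl13, and in clusters 13 and 15, where C4b and class II genes led. Those of library 1 lay mainly in clusters 0, 1, 3, 4, 5 and 6. The clusters were built with these 5 genes and other interferon genes set aside. Within the class, the 10 microglial markers were all detected in both libraries, at a sum of 11620 CPM in library 2 against 22235 CPM in library 1. The 7 monocyte markers reached 76.7 CPM in library 2 against 4.65 CPM in library 1, where Ly6c2 was at 0. T and NK cell markers stood at 0.642 and 0.54 CPM, with Cd3e, Cd3g, Ncr1, Nkg7 and Gzma at 0 in both. Astrocyte markers stood at 273 and 106 CPM, with Fgfr3 at 0 in library 1. Blood endothelial markers stood at 16.0 and 28.5 CPM, with Emcn, Tek and Slco1a4 at 0 in library 2. Dividing-cell markers stood at 209 and 61.9 CPM, and dendritic-cell markers, which share Siglech with the microglial list, at 352 and 1091 CPM. The part that these marker lists or the early and stress genes have in these ratios was not tested.

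The order of the library 2 clusters was alike for most of the genes. Ifitm3 was at 1152 CPM in cluster 14, 823 in cluster 15 and 697 in cluster 13, and Ly6a at 794, 529 and 469 CPM in the same order. Bst2 followed that order at 1111, 962 and 897 CPM. Ly6e did not, with 2019 CPM in cluster 15, 1864 in cluster 14 and 1741 in cluster 13. In the 6 main clusters of library 1, Ifitm3 ranged over 17.0 to 35.3 CPM, Ly6a over 5.60 to 13.4, Ly6e over 661 to 857 and Bst2 over 170 to 204 CPM, so no library 1 cluster of that kind reached the lowest library 2 cluster for any of them.

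Dividing microglia-like cells, the one microglia-like cluster with over 20 cells of each library (82 and 25), showed the difference as well. In them Ifitm3 stood at 1478 CPM in library 2 against 168 CPM in library 1, and Ly6a at 898 against 92.9 CPM. Bst2 stood at 1009 against 402 CPM and Ly6e at 2062 against 1570 CPM. Of the library 2 microglia-like clusters with over 20 cells, the dividing one had the highest Ifitm3 and Ly6a. Within library 1 the dividing cells exceeded each of the 6 main clusters for Ifitm3, Ly6a, Ly6e and Bst2. The 25 cells were also deeper than those clusters, with a median of 12805 UMIs. Their cluster was held mostly by library 2, and whether all 25 belong to library 1 was not tested.

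Other classes were small, so their levels carry wide intervals. Blood-endothelial-like cells had the highest Ly6a level of any named class in both libraries, 3476 CPM (2516 to 4682) in 4 cells of library 2 and 2865 CPM (2269 to 3571) in 8 cells of library 1. The ratio was 1.21 with an interval of 0.817 to 1.78, so no difference in Ly6a was detectable at this depth. The ratios of Ifitm3, at 1859 CPM (1179 to 2790) in library 2 and 1342 CPM (945 to 1850) in library 1, and of Ly6e, at 2183 and 1995 CPM, were 1.39 (0.786 to 2.39) and 1.09 (0.664 to 1.76). Bst2 had 9 UMIs (728 CPM) against 7 UMIs (254 CPM), a ratio of 2.87 (0.95 to 9.05), the widest of the class and also not resolved. Ly6c1, the neighbour of Ly6a used to name this class, is close in sequence to it, as given below.

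Olfactory-ensheathing-like cells, glia that wrap the olfactory nerve, had Ifitm3 at 2970 CPM (2657 to 3310) in 15 cells of library 2 and 398 CPM (236 to 629) in 7 cells of library 1. In library 2 that is above the microglia-like level of 923 CPM. Ly6e ran the other way, at 245 CPM (162 to 357) in library 2 ensheathing-like cells against 1843 CPM in microglia-like cells of the same library. Of its 27 UMIs in those ensheathing-like cells, 20 lay in 1 cell. In library 1, Ly6e had 1 UMI in the ensheathing-like cells and Ly6a had none, where 3 counts would make 66.3 CPM. Bst2 stood at 827 CPM (665 to 1015) in library 2 and 44.2 CPM (5.35 to 160) in library 1 ensheathing-like cells.

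Border-macrophage-like cells, found only among library 1 cells, had Bst2 at 815 CPM (737 to 899), above the 200.2 CPM of microglia-like cells in that library. This class also held microglial markers, at a sum of 12303 CPM, so it is not free of microglial signal. Their Ifitm3 stood at 174 CPM (139 to 215) and their Ifitm2 at 111 CPM (83.1 to 144), both above the microglia-like levels of 42.5 and 5.02 CPM. Ly6e, at 559 CPM (495 to 630), was below the microglia-like 741 CPM. Of the 21 Ly6a UMIs in these cells, 18 lay in 1 cell. Epithelial-like cells had Ifitm2 at 211 CPM (138 to 309) in 6 cells of library 2 and 267 CPM (221 to 320) in library 1, a ratio of 0.79 (0.495 to 1.22). The other ratios were 1.99 (1.39 to 2.82) for Ifitm3, 2.10 (1.69 to 2.61) for Ly6e and 2.62 (1.74 to 3.92) for Bst2. Ly6a, at 2.37 (0.694 to 7.45), was not resolved. Single cells weighed heavily: 41 of 45 library 2 Bst2 UMIs lay in 1 cell. The 62 library 1 cells were shallow (median 849.5 UMIs), and the class held 4192 CPM of microglial markers.

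**Figure D1:**
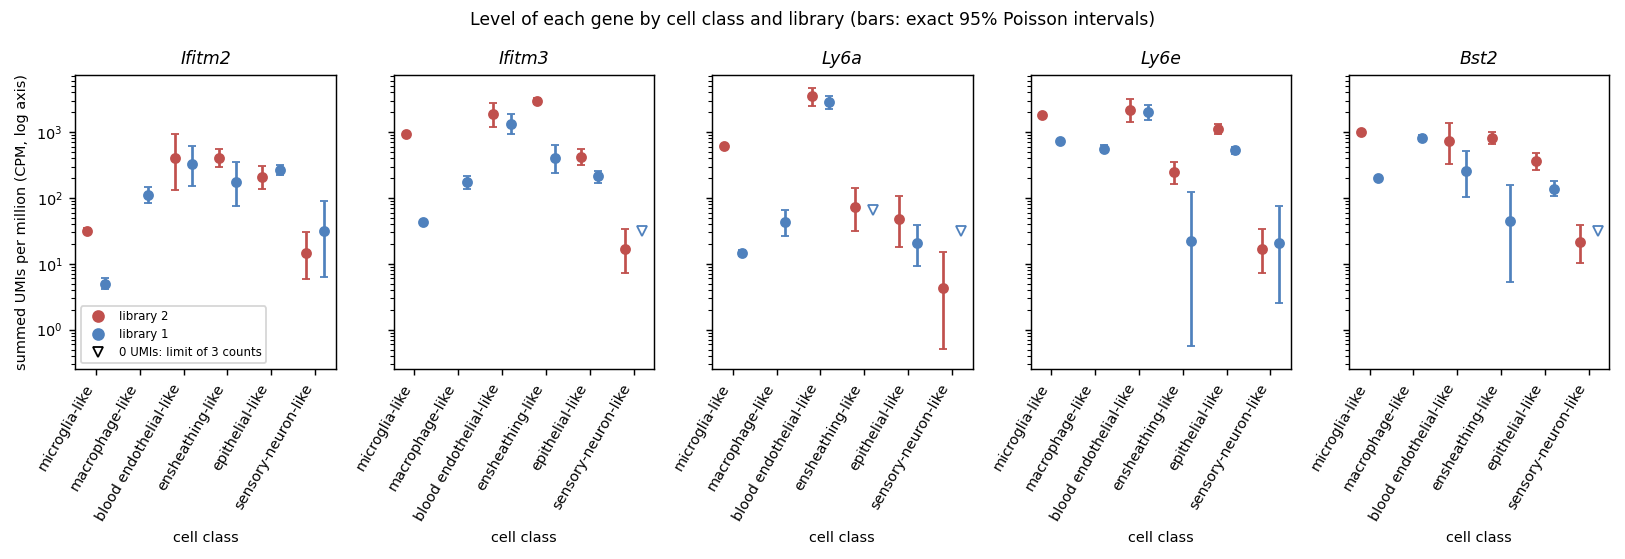
Summed CPM (log axis) of each gene by cell class, library 2 in red and library 1 in blue, with exact 95% Poisson intervals; open triangles mark the level of 3 counts where no UMI was found. Microglia-like points are far apart for Ifitm3 (923 and 42.5 CPM) and Ly6a (618 and 14.6 CPM), while the blood-endothelial-like points overlap for Ly6a (3476 and 2865 CPM).

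Sensory-neuron-like cells gave a background, since mature olfactory neurons are not known for these genes. In the 37 such cells of library 2 (median 11227 UMIs), Ifitm3 had a UMI in 18.9% of cells, Ly6a in 5.41%, Ly6e in 13.5%, Bst2 in 21.6% and Ifitm2 in 8.11%. In library 2 microglia-like cells, with a lower median of 9910 UMIs, the shares were 95.9%, 86.8%, 99.6%, 98.7% and 21.9% in the same gene order. For Ifitm2 the neuron-like interval, 1.70 to 21.9%, reaches the microglia-like share. In library 1 the 7 neuron-like cells (median 13704 UMIs) had no UMI of Ifitm3, Ly6a or Bst2, where 3 counts would make 31.0 CPM each, and 28.6% of them had one of Ifitm2 and of Ly6e.

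Read against that background, library 1 microglia-like cells (median 7381 UMIs) had Ly6e in 95.7% and Bst2 in 65.3% of cells, both above it. Ifitm2 was found in 2.97% of them, below the neuron-like share. Its 5.02 CPM lies under the 31.0 CPM of the neuron-like cells, so Ifitm2 was not told apart from background. That background value rests on 3 UMIs in 2 of 7 cells, with an interval of 6.40 to 90.7 CPM. Ifitm3 in 10.3% of cells and Ly6a in 5.76%, at 42.5 and 14.6 CPM, cannot be set firmly against 7 cells without a UMI: the limit of 31.0 CPM lies below the Ifitm3 level and above that of Ly6a.

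After each cell was thinned to 1000 UMIs, so that depth was equal, 1718 microglia-like cells of library 2 and 3151 of library 1 remained. Ifitm3 was found in 49.8% of them in library 2 (47.4 to 52.2%) and 2.67% in library 1 (2.13 to 3.29%). Ly6a was found in 38.8% and 1.14%, Bst2 in 60.2% and 14.7%, and Ifitm2 in 3.08% and 0.413%. Ly6e was the one gene common in both, with shares of 81.5% and 49.8%, and 29.2% of library 2 cells held 3 or more of its UMIs against 4.79% of library 1 cells. Over all kept cells, thinned shares were 49.8% and 3.16% for Ifitm3, 38.4% and 1.45% for Ly6a, 79.0% and 49.6% for Ly6e, 59.2% and 15.8% for Bst2 and 3.67% and 1.21% for Ifitm2. These left out 15 shallower cells of library 2 and 87 of library 1.

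**Figure D2:**
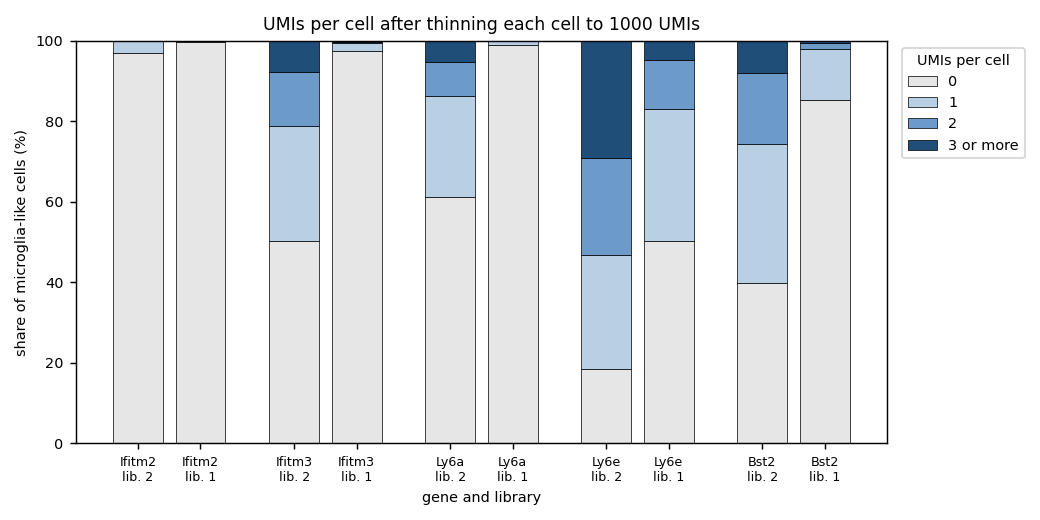
Share of microglia-like cells (%) by the number of UMIs of each gene after thinning to 1000 UMIs per cell, library 2 left of library 1 in each pair. The bars for 0 UMIs take up 50.2% of library 2 and 97.3% of library 1 cells for Ifitm3, and 18.5% and 50.2% for Ly6e.

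How the UMIs were spread over cells differed as well. In library 2 the 1% of microglia-like cells richest in Ifitm3 held 6.40% of its UMIs, and in library 1 they held 51.1%. Ly6a was spread likewise, with 6.94% and 53.7%, while Ly6e was even in both, with 3.32% and 5.58%. Bst2 lay between, with 4.37% and 13.8%. Such a share rises by itself where a gene has few UMIs per cell. These shares were not set against that. Cells with 10 or more Ifitm3 UMIs numbered 635 of 1721 in library 2 and 22 of 3162 in library 1, and the highest cell held 145 and 71 UMIs. Ly6a thus had a median of 4 UMIs per cell in library 2 and of 0 in library 1, where its few UMIs came from few cells.

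Part of the library 1 signal came from cells that clustered with library 2. Of the library 1 microglia-like cells, 19 (0.601%) lay in clusters 13, 14 and 15, and they held 25.7% of that library's microglia-like Ifitm3 UMIs and 32.1% of its Ly6a UMIs, but 7.03% of Bst2 and 2.20% of Ly6e. Their levels were 1085 CPM for Ifitm3, 466 CPM for Ly6a, 1399 CPM for Bst2 and 1618 CPM for Ly6e. None of the 19 shared a barcode sequence with a library 2 cell. Without them the library 1 microglia-like level was 31.9 CPM for Ifitm3 and 10.0 CPM for Ly6a, against 42.5 and 14.6 CPM with them. Bst2 was then at 188 CPM and Ly6e at 732 CPM. Whether the 19 belong to library 1 was not tested. They include 9 of the 22 cells with 10 or more Ifitm3 UMIs, so 13 such cells remained without them. Their medians per 1000 UMIs were 3 type I UMIs, 6 interferon gamma UMIs and 32 early and stress UMIs, between the 4, 18 and 21 of library 2 cells and the 0, 1 and 58 of other library 1 cells.

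Detection of several of the genes in 1 cell was more frequent in library 2. It was not set against the share that each gene's own frequency would give. Among thinned microglia-like cells, 3 of the 5 genes were found in 530 of 1718 library 2 cells, 4 in 223 and all 5 in 6, against 31, 2 and 0 of 3151 library 1 cells. None of the 5 was found in 3.14% of library 2 and 42.7% of library 1 cells. Across cells, with no thinning, Ifitm3 and Bst2 had a Pearson correlation of 0.39 in library 2 (1721 cells) and 0.37 in library 1 (3162 cells), and a Spearman correlation of 0.42 and 0.27. Ifitm3 and Ly6a had 0.25 and 0.34 (Spearman 0.27 and 0.23). Pairs with Ifitm2 had a Pearson correlation of at most 0.13 in either library. These correlations describe cells that share a library and its depth, and weak ones in sparse counts say little. In thinned library 1 cells, Bst2 was found in 40.5% of cells with an Ifitm3 UMI and in 14.0% of cells without one. In library 2 these shares were 65.3% and 55.1%. Library 2 pairs with Ly6a differed as well. Ly6a was found in 42.3% of cells with an Ifitm3 UMI and 35.3% without. By Ifitm2 its shares were 50.9% and 38.4%, with only 53 cells that had an Ifitm2 UMI. Bst2 was found in 64.4% of cells with a Ly6a UMI and 57.5% without, and Ly6e in 84.5% and 79.6%. Ly6e with Bst2 or Ifitm3 showed little or none of this. Bst2 was found in 60.1% of cells with a Ly6e UMI and 60.4% without. Ly6e was found in 81.7% of cells with an Ifitm3 UMI and 81.3% without. Ifitm3 was found in 24 of the 53 cells with an Ifitm2 UMI, 45.3%, against 49.8% of all 1718 cells.

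The genes most like each one across microglia-like cells were taken from 9216 genes in library 2 and 8379 in library 1, by Pearson correlation of log counts. For Ifitm3 they were Isg15, Bst2, Irf7, Tspo and Cd52 in library 2 (0.39 to 0.35) and Ifi27l2a, Ifi204, Lgals3bp, Bst2 and Rtp4 in library 1 (0.49 to 0.35). For Bst2 they were Isg15, Ifitm3, Tspo, Irf7 and Zbp1 in library 2 (0.39 to 0.28) and Ifitm3, Ifi27l2a, Lgals3bp, B2m and Rtp4 in library 1 (0.37 to 0.24). Many of these are interferon-stimulated genes, among them Isg15, a ubiquitin-like protein, and Irf7, a factor that amplifies type I interferon. Ly6a went with Cybb, Ifi27l2a, Irf7, Ifitm3 and Isg15 in library 2 (0.29 to 0.25) and with Ifitm3, Ifi27l2a, Gbp2, H2-Aa and Ifi204 in library 1 (0.34 to 0.26). Ly6e stood apart in both libraries. Its nearest genes were C1qb, C1qa, C1qc, B2m and Ctss in library 2 (0.41 to 0.34) and B2m, C1qb, Itm2b, C1qa and C1qc in library 1 (0.35 to 0.27), which include the 3 chains of complement C1q, abundant products of microglia. The best correlations of Ifitm2 were 0.17 in library 2 and 0.13 in library 1, too weak to describe.

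To see whether the genes went with the rest of the interferon response within a library, microglia-like cells were grouped by the UMIs of 30 type I interferon genes per 1000 UMIs. The groups are ranges of a count and not cell types. In library 2, Ifitm3 stood at 622 CPM in cells with 0 type I UMIs (108 cells), 667 with 1, 805 with 2, 868 with 3 to 5 and 1248 CPM with 6 or more (468 cells). Bst2 stood at 770, 798, 905, 968 and 1196 CPM over the same groups. Ly6a was nearly level up to 2 UMIs, at 493, 471 and 501 CPM, and stood at 573 and 841 CPM in the top groups. Ly6e was at 1776, 1760, 1763, 1817 and 1977 CPM, a narrow span, and Ifitm2 at 25.7 to 35.4 CPM with intervals that overlap.

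In library 1 the same groups spanned wider ratios from lower levels. Ifitm3 stood at 14.3 CPM in 2337 cells with 0 type I UMIs, 40.1 with 1, 152 with 2 and 401 CPM in 52 cells with 3 to 5. The group with 6 or more held 18 cells and is not given. The 19 library 1 cells that clustered with library 2 were not left out of these groups or of those below. Ly6a stood at 6.55, 12.8, 56.8 and 137 CPM, Bst2 at 161, 199, 432 and 660 CPM, and Ly6e at 691, 789, 1009 and 1203 CPM. In groups of the same type I count, library 2 was higher for each of these 4 genes. With 0 type I UMIs, for example, Bst2 was at 770 CPM in library 2 against 161 CPM in library 1, and with 3 to 5 at 968 against 660 CPM. Equal counts out of 1000 UMIs do not equate the type I levels of cells, so nothing is concluded from this. Of library 2 cells 6.29% had 0 type I UMIs, against 74.2% of library 1 cells. Library 2 cells with 0 type I UMIs still had a median of 17 interferon gamma UMIs per 1000, against 1 in library 1.

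Grouping by 27 interferon gamma genes gave another picture. Over all library 2 kept cells the list summed to 20019 CPM. Cd74 made 8965 of this, H2-Ab1 2132, H2-Aa 1969 and H2-Eb1 1646. The groups therefore mainly follow Cd74 and class II genes and say less of the rest of the list. In library 2 the levels of 4 of the 5 genes changed little over these groups. Ifitm3 was at 896, 998, 941 and 892 CPM with 2 to 4, 5 to 9, 10 to 19 and 20 or more interferon gamma UMIs per 1000. Bst2 was at 969, 1036, 984 and 978 CPM, Ly6a at 611, 590, 585 and 653 CPM and Ly6e between 1826 and 1849 CPM. Ifitm2 was lower with more such UMIs, at 44.5, 45.8 (38.5 to 54.1), 29.6 and 27.3 CPM (23.9 to 30.9). In library 1, Ifitm3 was at 21.0 CPM with 0 or 1 such UMI, 36.3 with 2 to 4, 78.0 with 5 to 9, 469 with 10 to 19 (49 cells) and 311 CPM with 20 or more (27 cells). Ly6a was at 7.57, 10.9, 22.9, 162 and 168 CPM and Bst2 at 174, 197, 266, 560 and 544 CPM.

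With both lists taken at once in library 2, Ifitm3 stood at 755, 690 and 728 CPM over rising interferon gamma counts (0 to 9, 10 to 24, 25 or more) in cells with 0 to 2 type I UMIs, and at 1286, 1307 and 1169 CPM in cells with 6 or more. With 3 to 5 type I UMIs it was lower with more interferon gamma UMIs, at 1011 (965 to 1058), 858 and 777 CPM (743 to 813). Bst2 was also lower there, at 1037 (990 to 1085), 969 and 917 CPM (880 to 956). Ly6a was not, at 575, 555 and 593 CPM. Ly6a stood at 440 (408 to 473), 484 and 533 CPM (502 to 566) with 0 to 2 type I UMIs, so it was higher with more interferon gamma UMIs there, and at 929, 764 and 889 CPM with 6 or more. Within each interferon gamma range, both genes and Bst2 were higher in cells with 6 or more type I UMIs than in cells with 0 to 2.

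Early and stress genes moved with the values in the other direction. In library 2 cells with 0 to 9, 10 to 19, 20 to 39, 40 to 59 and 60 or more of these UMIs per 1000, Ifitm3 stood at 1381, 987, 808, 591 and 466 CPM. Ly6a stood at 770, 728, 533, 442 and 418 CPM, Bst2 at 1155, 1044, 932, 841 and 706 CPM, and Ly6e at 2006, 1899, 1799, 1655 and 1496 CPM. In library 1, Ifitm3 stood at 64.3, 228, 56.9, 33.7 and 33.5 CPM over those groups, the lowest group holding 22 cells. Within every one of the groups library 2 was higher for all of Ifitm3, Ly6a, Ly6e and Bst2. At 20 to 39 UMIs, which held 736 cells of library 2 and 597 of library 1, Ly6a was at 533 against 23.6 CPM and Ly6e at 1799 against 843 CPM. The part of dissociation or of cell state in these gradients was not tested.

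**Figure D3:**
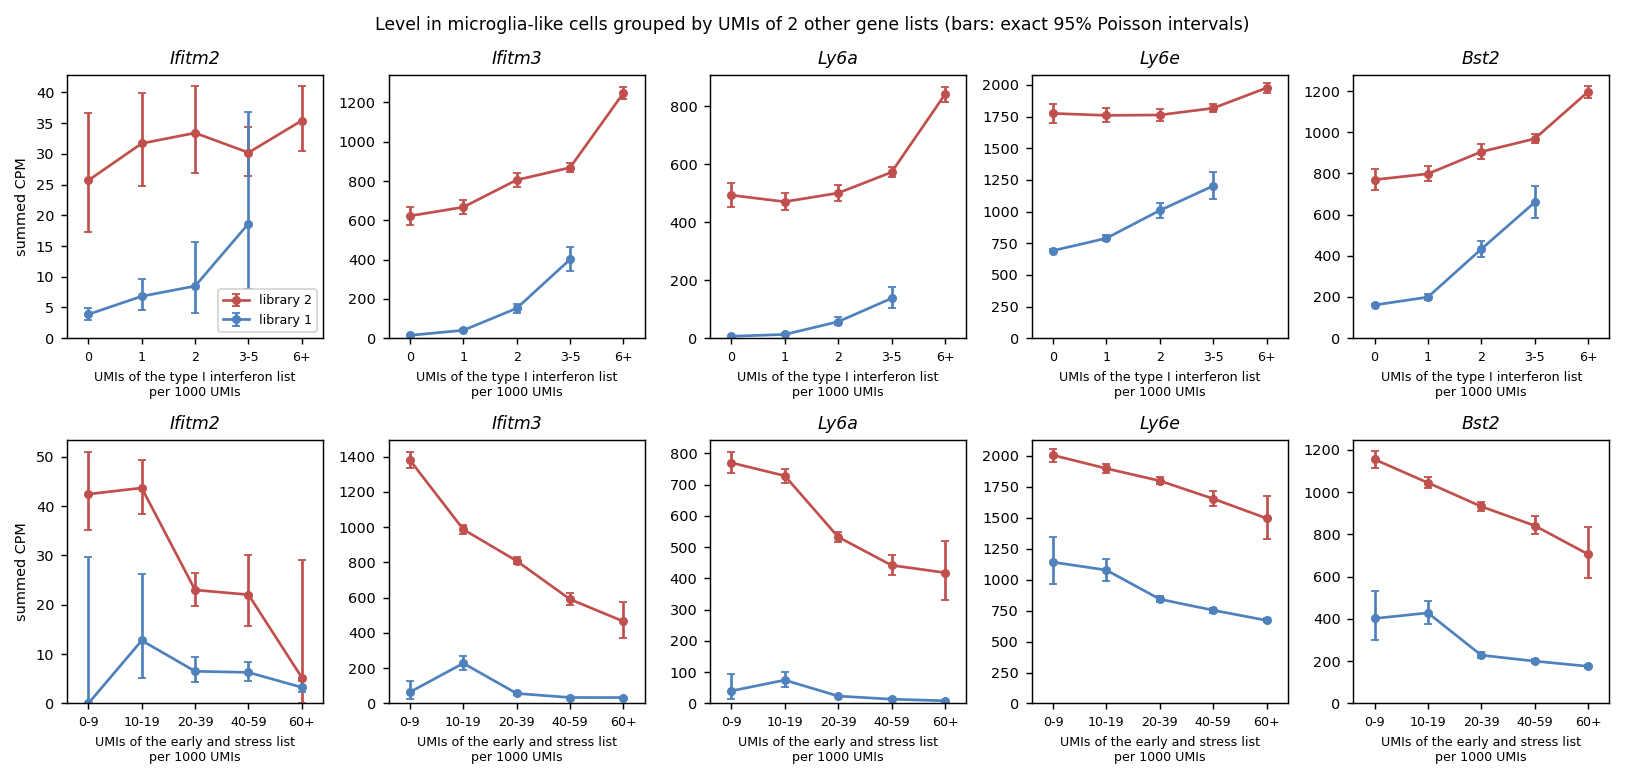
Summed CPM of each gene in microglia-like cells (linear axes from 0, exact 95% Poisson intervals) by UMIs per 1000 of the type I interferon list (top) and of the early and stress list (bottom), library 2 in red and library 1 in blue; groups under 20 cells are not drawn. Ifitm3 in library 2 reaches 1248 CPM at 6 or more type I UMIs and 1381 CPM at 0 to 9 early and stress UMIs, and the library 2 line lies above the library 1 line throughout for Ifitm3, Ly6a, Ly6e and Bst2.

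Relatives of the genes did not all follow them. Of 7 Ifitm genes, 5 had at least 20 UMIs, of which 1 (Ifitm3) was 2-fold higher and 1 (Ifitm10) 2-fold lower in library 2. Over all 13891 genes, 2.76% were 2-fold higher and 1.92% 2-fold lower. Ifitm10, a distant member of the family, stood at 5.62 CPM in library 2 against 28.4 CPM in library 1, and nearly all of its UMIs (113 of 114 and 702 of 732) lay in microglia-like cells. Ifitm1 had 185 UMIs in library 2 and 512 in library 1. Of those 512, 388 lay in 10 cells of an unnamed cluster led by Ifitm1, Cyp11a1, Cd200r3 and Fcer1a, and 9 in microglia-like cells, against 104 UMIs in library 2 microglia-like cells. All 117 UMIs of Ifitm5, known from bone-forming cells, lay in 1 cell of library 2, against 1 UMI in library 1. The family's direction therefore differed by member and by cell class.

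Of 36 Ly6 family genes, 34 were in the feature list and 14 had at least 20 UMIs. Of these, 3 were 2-fold higher in library 2 (Ly6a, Ly6e and Ly6i) and none 2-fold lower, against 2.76% and 1.92% of all 13891 genes. Ly6a and Ly6e were themselves chosen on this contrast. The family median was 0.11 on the log2 scale. Ly6i, the gene between Ly6a and Ly6e, had 1813 UMIs (89.4 CPM) in library 2 against 27 UMIs (1.05 CPM) in library 1, and was found in 36.9% of library 2 and 0.528% of library 1 kept cells. The remaining 11 lay within 2-fold, most of them at under 10 CPM in both libraries, where adding 10 CPM pulls a ratio towards even. Without it Ly6g6e stood at 7.94 against 3.80 CPM, a ratio of 2.09, and Ly6k at 6.36 against 3.26 CPM, a ratio of 1.95. With 1 CPM added in place of 10, 3 of the 14 were 2-fold higher and 5 were 2-fold lower, and at a limit of 1.5-fold 3 were higher and 2 lower. Over all 13891 genes, 1208 were higher and 718 lower with 1 CPM, and 946 and 822 at 1.5-fold. Plaur, the urokinase receptor, stood at 34.1 against 69.5 CPM (log2 ratio -0.85). Ly6g6d (104 and 103 UMIs), Ly6g6e (161 and 98) and Ly6k (129 and 84) were mainly in microglia-like cells, and Lypd6 had 7 and 69 UMIs. Others marked small classes: Ly6c1 (56 and 212 UMIs) had 52 and 179 of its UMIs in blood-endothelial-like cells, and Lypd2 (98 and 362) had 96 and 350 in epithelial-like cells. Ly6d had none in library 2 and 37 in library 1. Ly6h (20 and 6 UMIs) was mainly in sensory-neuron-like cells, Cd59a (46 and 35) in ensheathing-like cells, and Lypd1 had 14 and 7 UMIs.

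Close copies limit what can be said of single genes. In GENCODE M21 transcripts, Ifitm2 shares a run of 69 bases with Ifitm3, and 3.30% of its 50-base windows occur there. Ly6a shares runs of 80 bases with Ly6i and 89 bases with Ly6c1, with 3.42% and 4.42% of its windows. Ly6a and Ly6e share no run over 11 bases. How the deposited counts treat reads that match several genes is not stated in any source, so values of Ifitm2, Ly6a and Ly6i are uncertain to that extent. Ifitm2 had 598 UMIs beside 17251 of Ifitm3 in library 2 microglia-like cells.

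The other interferon genes were described in lists. For comparison, 2.76% of all 13891 genes were 2-fold higher in library 2 and 1.92% 2-fold lower. Of 30 type I interferon genes, 29 were 2-fold higher in library 2 and none lower, with a median log2 ratio of 2.13. Ifi27l2a stood at 691 against 50.2 CPM and Slfn2 at 316 against 73.4 CPM. Isg15 stood at 301 against 36.9 CPM and Zbp1, a sensor of nucleic acids, at 214 against 6.91 CPM. Cmpk2, at 9.22 against 1.40 CPM, was the one that did not pass the limit. Of 27 interferon gamma genes, 22 were 2-fold higher and none lower (median 2.26). The most abundant were Cd74 at 8965 against 663 CPM, H2-Ab1 at 2132 against 72.7 CPM, H2-Aa at 1969 against 54.1 CPM and H2-Eb1 at 1646 against 46.6 CPM. These genes serve antigen presentation by class II molecules. Tgtp1, Irf1, Tgtp2, Tap2 and Cxcl10 did not pass it.

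Of 16 other antiviral restriction factors, 15 were in the feature list, 8 were 2-fold higher in library 2 and none lower, with a median of 1.09. Over all genes the shares higher and lower were 2.76% and 1.92%. Apobec3, a cytidine deaminase, stood at 338 against 109 CPM, Samhd1, which depletes nucleotides, at 238 against 50.8 CPM, and Eif2ak2, the kinase PKR, at 156 against 28.4 CPM. Serinc3, a membrane protein that lowers the infectivity of retroviruses, was even at 1118 against 1113 CPM. Zbp1, Rsad2 and Mx1 belong to this list and to the type I list. Of 11 interferon ligands, the summed count was 9 UMIs in library 2 against 58 in library 1, of which 8 and 57 were Ifnb1. The lists were chosen with earlier results of these data known, and their counts are not independent evidence of a direction.

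**Figure D4:**
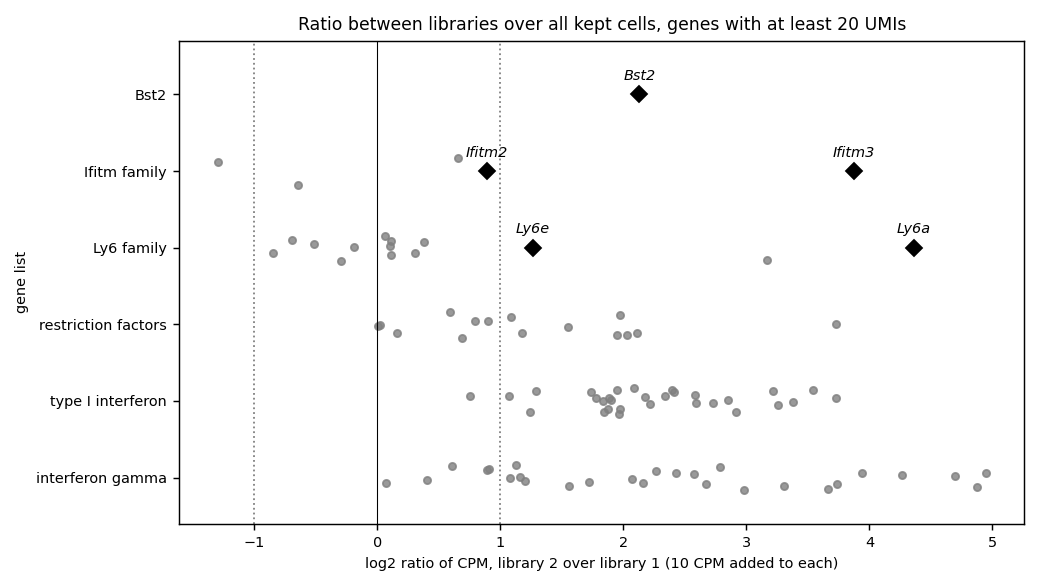
Log2 ratio of CPM, library 2 over library 1 with 10 CPM added to each, over all kept cells for genes with at least 20 UMIs; black diamonds are the 5 genes, grey points other genes of each list, and dotted lines mark 2-fold. Ly6a (4.36), Ifitm3 (3.88), Ly6i (3.17) and Ly6e (1.26) are the family genes right of the 2-fold line, and Ifitm10 (-1.30) is the one left of it.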

How the data were processed

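The deposited matrix holds raw UMI counts, 31053 genes by 6272 barcodes and 47541728 UMIs, written by Cell Ranger 3.1.0 per the file headers. In addition, bcl2fastq and UMI-tools are listed in the submitters' processing notes. Aligner settings, genome build and any doublet removal before deposit are not given in the sources, and doublets were not called.

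Further steps ran in Python 3.11.15 on these counts, with Scanpy 1.11.5 and igraph 0.11.9 for clustering and NumPy 2.4.6, SciPy 1.17.1 and pandas 2.3.3 for sums and intervals. The cell filter dropped 512 library 2 and 432 library 1 barcodes. Cells were clustered (2000 variable genes, 30 components, 15 neighbours, Leiden resolution 1) with the 143 genes of 8 response lists set aside. A cluster was named from at least 3 of a type's markers among its 50 highest folds. Failing that, it was microglia-like where at least 7 of 10 microglial markers reached 100 CPM and 20 UMIs, which named clusters 2, 3, 4, 13, 14 and 15. Mixed clusters were split once more, and the naming rule was written after a first look at the clusters. Of the cells, 52 and 31 (library 2 and library 1) stayed unnamed, 10 and 13 stayed mixed, and 77 and 63 joined markers of another type to at least 5000 CPM of microglial markers and were kept apart. Border-macrophage-like cells, which were past that level, were exempt from this rule and kept their name.

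CPM are UMIs summed over cells and scaled to 1000000, with exact Poisson 95% intervals. Ratio intervals are exact binomial, and intervals of shares are exact binomial (Clopper-Pearson). Log2 ratios used 10 CPM on both sides and understate changes of low genes. A count of 0 is given as the level of 3 counts. With 1 library per suffix there was no replicate and no test. The 5 genes and the lists were chosen with earlier results of these data known. Genes named beside the 5 were their relatives with at least 20 UMIs, the 5 most correlated genes per library among genes with a UMI in at least 5% of microglia-like cells, and from each of the type I, interferon gamma and restriction lists the 4 most abundant and the 2 with the largest ratio. List genes named for missing the 2-fold limit, gate and marker genes, and Ifnb1 were named after their values were seen. A gene that these rules name may be missing from the text, since a few are not reported here.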

Additional observations from a re-analysis of the deposited data

Results flagged for a closer look

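The 512 barcodes of library 2 and 432 of library 1 left out by the cell filter, with median mitochondrial shares of 51.3% and 63.9%, also held UMIs of all 5 genes above the level of 3 counts, 3.03 CPM in library 2 and 5.96 CPM in library 1. Ifitm3 stood at 681 CPM (631 to 735) in library 2 and 121 CPM (92.7 to 156) in library 1. Ifitm2 stood at 106 CPM (86.7 to 128) in library 2 and 47.7 CPM (30.6 to 71.0) in library 1, above its 37.0 and 15.3 CPM in kept cells. Ly6a, at 94.9 CPM (76.7 to 116) and 85.5 CPM (61.9 to 115), was nearly level between the libraries, unlike in kept cells. Ly6e, at 154 and 103 CPM, and Bst2, at 170 and 23.9 CPM, were below their kept-cell levels in both. No explanation of these values was tested.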

How the results depend on the processing

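No alternative reversed a direction. Of 40 log2 ratios of the 5 genes under other settings, 19 stayed within counting error and 21 moved. With all barcodes, Ly6e was 1.23. In microglia-like cells the ratios were 1.48 (Ifitm2), 4.15 (Ifitm3), 4.67 (Ly6a), 1.30 (Ly6e) and 2.25 (Bst2), which puts Ifitm2 past 2-fold against a library 1 level not told apart from background. Leaving mitochondrial, ribosomal and haemoglobin genes out of the totals gave 1.02 (Ifitm2, past 2-fold), 4.02 (Ifitm3), 4.53 (Ly6a), 1.39 (Ly6e) and 2.26 (Bst2). Leaving out early and stress genes gave 1.21 (Ly6e) and 2.08 (Bst2). Means over cells gave 3.72 (Ifitm3) and 1.29 (Ly6e). With a pseudocount of 1 CPM, Ifitm2 was 1.22, Ifitm3 4.08, Ly6a 4.86 and Bst2 2.18. A further alternative, chosen after seeing the data, left out shared barcodes and cells of 1 library in microglia-like clusters held mostly by the other. The dividing cluster was kept in it, and Ifitm3 was 4.17, Ly6a 4.58 and Bst2 2.21. Thinned to 2000 UMIs, the shares of Ifitm2, Ifitm3, Ly6a, Ly6e and Bst2 were 6.33%, 70.6%, 56.6%, 93.5% and 79.7% in library 2 and 2.24%, 4.94%, 2.30%, 71.1% and 29.8% in library 1. Unthinned, they were 22.7%, 93.7%, 83.6%, 96.7% and 96.5% in library 2 and 5.31%, 11.8%, 6.25%, 93.5% and 63.9% in library 1. At 1.5-fold, and with a pseudocount of 1 CPM, 3 Ifitm genes were higher in place of 1 and 2 lower in place of 1. Under these settings 2 and 5 Ly6 genes were lower in place of 0. Over all 13891 genes 6.81% and 8.7% were then higher, and 822 and 718 genes were lower. All 5 genes passed under both. The cause of these shifts was not tested. No paired analysis was possible because each suffix is 1 library with no replicate. With 1 pool per condition, spread between mice, batch and condition cannot be told apart, and the suffixes are not mapped to conditions.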
